A study of Mus musculus with 24 samples.

Results

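The neutrophil-attracting CXC chemokines are a family of small secreted proteins that draw neutrophils out of blood into infected tissue. Their genes Cxcl1, Cxcl2, Cxcl3, Cxcl5, Cxcl15, Ppbp and Pf4 were examined, along with Cxcr2, the receptor on neutrophils that binds most of them, by matching gene symbols in the deposited tables. All 8 were found among the 54658 symbols of each table. The mice were male C57BL/6 aged 7 to 12 weeks, and β-NMN (β-nicotinamide mononucleotide, a precursor of NAD+) was injected intraperitoneally at 185 mg/kg/day, with 0.9% NaCl as the vehicle. In the first experiment, 6 vehicle and 6 β-NMN mice received 1 ml of 4% Brewer thioglycolate medium (TGC), which provokes a sterile peritonitis, and the cells washed from the peritoneum were plated and exposed to E. coli for 6 h. In the second, hearts and lungs came from the same 3 vehicle and 3 β-NMN mice after cecal ligation and puncture (CLP). CLP is a model of sepsis in which gut bacteria leak into the abdomen. These organs were taken 24 h after surgery, so the mice had received only the injection given right after it. The TGC mice were instead injected daily, starting together with TGC, so exposure to β-NMN differed between the experiments. In both, the last injection preceded sacrifice by 24 h. None of the libraries came from sham, unstimulated or untreated material. Every value below therefore comes from inflamed or stimulated material, and every treatment comparison is β-NMN against vehicle.

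The source labels of the organ samples name thioglycollate, whereas their titles and tissue labels name CLP. A pair of β-NMN hearts carry the number 3, and the heart tagged as the partner of lung 2 was taken as replicate 2. Total counts ran from 31126823 to 112456050 in peritoneal libraries, from 27319513 to 68523239 in hearts and from 8915366 to 28356786 in lungs. Both organs of vehicle mouse 2 stood apart from the rest. Log2 levels of each library were set against the mean of all other libraries of that organ, both treatments together. For this mouse the deviations had an SD of 0.99 in heart (0.39 to 0.58 in the other hearts) and of 1.57 in lung (0.45 to 0.60 in the others). The members' fitted differences in the organs are therefore given with and without this mouse. Gene lists in the organs are given with all mice. Cardiomyocyte markers were lower in lung than in heart for 8 of 8 genes, and alveolar epithelial markers were higher in lung for 10 of 10. The peritoneal cells carried macrophage markers at a summed 7949 to 14420 CPM, where CPM denotes counts scaled to a common library size after TMM normalisation.

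CXCL1, CXCL2, CXCL3 and CXCL5, and the CXCL7 peptide cut from the Ppbp protein, share a short motif near their start that lets them activate CXCR2 on neutrophils. Macrophages, epithelium, endothelium and fibroblasts make the first of these within hours of sensing bacteria, interleukin 1, TNF or interleukin 17, through NF-κB and by slowing the decay of otherwise short-lived mRNAs. Ppbp and Pf4 (CXCL4) are packed into platelets by megakaryocytes, and Pf4, which lacks that motif, is also transcribed by some tissue macrophages. Cxcl15, known as lungkine, is made by lung epithelium.

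The 7 chemokine genes lie side by side on mouse chromosome 5 within 147 kb (GRCm38, chr5:90759360-90905938), in the order Cxcl5, Ppbp, Pf4, Cxcl3, Cxcl15, Cxcl1 and Cxcl2, all on the plus strand. Cxcr2 lies on chromosome 1 (chr1:74153989-74161246). RefSeq promoters of GRCm38.p6, which span 250 bases before to 50 after a gene's start, were at hand for 7 of the 8 genes, and Cxcl5 had no entry. They were searched on both strands for GGANNTTCC (reverse complement GGAANNTCC), a 9-base core of the NF-κB recognition sequence chosen after the sequences had been seen. The motif was present in the promoters of Cxcl1, Cxcl2 and Cxcl3 and in none of the 4 others, against 4.26% of all 32851 promoters in the table. The 100 bases before the start are shown for these 3 genes, which were the most abundant of the 8 in vehicle peritoneal cells, and for Pf4, whose level moved the other way there. Capitals mark the match, and all are plus-strand sequence read 5′ to 3′.
Cxcl1, chr5:90891145-90891244: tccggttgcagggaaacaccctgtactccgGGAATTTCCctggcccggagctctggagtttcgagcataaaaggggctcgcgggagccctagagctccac
Cxcl2, chr5:90903799-90903898: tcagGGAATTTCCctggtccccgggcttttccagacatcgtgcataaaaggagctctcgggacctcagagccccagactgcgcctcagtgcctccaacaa
Cxcl3, chr5:90786001-90786100: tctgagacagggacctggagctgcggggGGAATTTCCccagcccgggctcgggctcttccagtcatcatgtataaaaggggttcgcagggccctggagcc
Pf4, chr5:90772335-90772434: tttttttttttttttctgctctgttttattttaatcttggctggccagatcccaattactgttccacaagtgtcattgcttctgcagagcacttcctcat
The same 9 letters, GGAATTTCC, stood in all 3 matching promoters, beginning 70 bases before the start of Cxcl1, 96 before that of Cxcl2 and 72 before that of Cxcl3. A match in these letters is a description of the sequence, and binding was not measured.

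In E. coli-stimulated peritoneal cells of vehicle mice, Cxcl2 was the most abundant of the 8 transcripts. It took between 0.384% and 0.964% of all counts in the 6 vehicle libraries and between 0.171% and 0.279% in the 6 β-NMN libraries. Divided by exon length so that genes can be compared, its mean level was 2846 CPM per kb in vehicle libraries, followed by Cxcl1 with 345, Cxcl3 with 76.0, Pf4 with 53.2, Cxcr2 with 1.45, Cxcl5 with 0.152, Ppbp with 0.0630 and Cxcl15 with 0.0206. The ranges over the 6 vehicle libraries overlapped between Cxcl1 and Cxcl3, between Cxcl3 and Pf4, between Cxcl5 and Ppbp and between Ppbp and Cxcl15, so those neighbours were not separated beyond their spread at these lengths. In β-NMN libraries Pf4, at 82.8 CPM per kb, stood above Cxcl3, at 21.6, and their ranges did not overlap. The gap between Cxcl3 and Pf4 depends on the length used, since the exons of all Cxcl3 transcripts cover 3498 bases and those of its coding transcripts 1016. With the coding transcripts, Cxcl3 was at 262 and Pf4 at 54.8 CPM per kb in vehicle libraries, without overlap, and at 74.5 and 85.3 in β-NMN libraries, with overlap.

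Among the inducible ligands, Cxcl2 and Cxcl3 were lower in peritoneal cells of β-NMN mice without any overlap between groups. Cxcl2, also called MIP-2, ran from 3862 to 9006 CPM in vehicle libraries (median 5645) and from 1704 to 3148 in β-NMN libraries (median 1907). All 6 β-NMN libraries were below the lowest vehicle library. The difference was -1.48 on the log2 scale (SE 0.21), a 2.80-fold lower level, with an adjusted p of 4.73e-05 in edgeR's quasi-likelihood test, and the exact two-sided permutation test gave p = 0.00216, the smallest it can give with 6 mice against 6. Cxcl3 ran from 134 to 514 CPM in vehicle (median 224) and from 42.6 to 130.2 in β-NMN (median 78.2). Its β-NMN libraries too were all below the lowest vehicle library, though the highest β-NMN value came close to it. Cxcl3 was 3.51-fold lower (log2 -1.81, SE 0.33, adjusted p = 0.000377 by edgeR, exact permutation p = 0.00216).

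Cxcl1, the mouse KC chemokine, differed less clearly. It ran from 257 to 1278 CPM in vehicle (median 465.8) and from 261 to 538 in β-NMN (median 331), and the whole β-NMN range lay within the vehicle range. Vehicle replicates 3 and 4, at 1278 and 1026 CPM, lay well above the other 4, which ran from 257 to 487. The fold change was -0.84 on the log2 scale (SE 0.33, adjusted p = 0.0440 by edgeR), whereas the exact permutation test gave p = 0.136 and DESeq2 an adjusted p of 0.0735. The call was also lost when vehicle replicate 3 (log2 -0.49, adjusted p = 0.160), vehicle replicate 4 (-0.63, 0.127) or any of β-NMN replicates 1 to 5 (adjusted p up to 0.0899) was left out of the edgeR fit.

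Cxcl5, an epithelial and stromal member of the family, was barely present in these cells. It held between 8 and 30 counts per library, or 0.161 to 0.543 CPM in vehicle and 0.110 to 0.357 CPM in β-NMN, and the groups overlapped. Low counts in peritoneal libraries were mostly even numbers, so both ends of a fragment may have been counted, in which case fewer fragments than counts lie behind such values. The log2 difference of -0.25 had a 95% interval from -1.07 to 0.57 (adjusted p = 0.614 by edgeR). Ppbp and Cxcl15 fell under the low-count filter and were not tested, with at most 10 counts of Ppbp and 7 of Cxcl15 in any library. A count of 0 was recorded for Cxcl15 in 1 vehicle and 4 β-NMN libraries and for Ppbp in 3 β-NMN libraries.

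Pf4 moved in the opposite direction. It ran from 26.8 to 61.3 CPM in vehicle (median 35.1) and from 36.1 to 70.9 in β-NMN (median 61.5), and 5 of the 6 β-NMN libraries, at 58.9 or more, were above all but 1 vehicle library. The level was 1.56-fold higher (log2 0.64, SE 0.21, adjusted p = 0.0168 by edgeR, exact permutation p = 0.0303). Of 13 platelet and megakaryocyte markers, the platelet surface genes Gp9 and Gp1bb did not exceed 0.067 and 0.0389 CPM in any peritoneal library. The summed level of the list, carried mostly by F13a1, which macrophages also express, and Itgb3, ran from 39.6 to 67.3 CPM in vehicle and from 37.7 to 54.7 in β-NMN. Of 8 such markers tested, 1 was called, Tubb1, and it was lower. The part of platelet content in the Pf4 values was not tested.

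Cxcr2 showed the largest change of the 6 genes tested. It ran from 1.95 to 7.65 CPM in vehicle (median 4.18) and from 0.0989 to 0.559 in β-NMN (median 0.252), that is from 86 to 455 counts against 4 to 25. Every β-NMN library was below every vehicle library. The difference was -4.10 on the log2 scale (SE 0.40, adjusted p = 1.44e-06 by edgeR, exact permutation p = 0.00216), a 17.1-fold lower level.

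In all, 6 of the 8 genes could be tested in peritoneal cells, and 5 were called at an adjusted p below 0.05, of which 4 were lower and 1 higher. Over all 14985 genes tested, 51.6% were called, 27.9% as lower and 23.7% as higher. The groups did not overlap for Cxcl2, Cxcl3 and Cxcr2, all lower, and for 14% of all genes tested in that direction. The median log2 change was -1.16 over the 6 tested members and -0.022 over all genes tested.

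**Figure D1:**
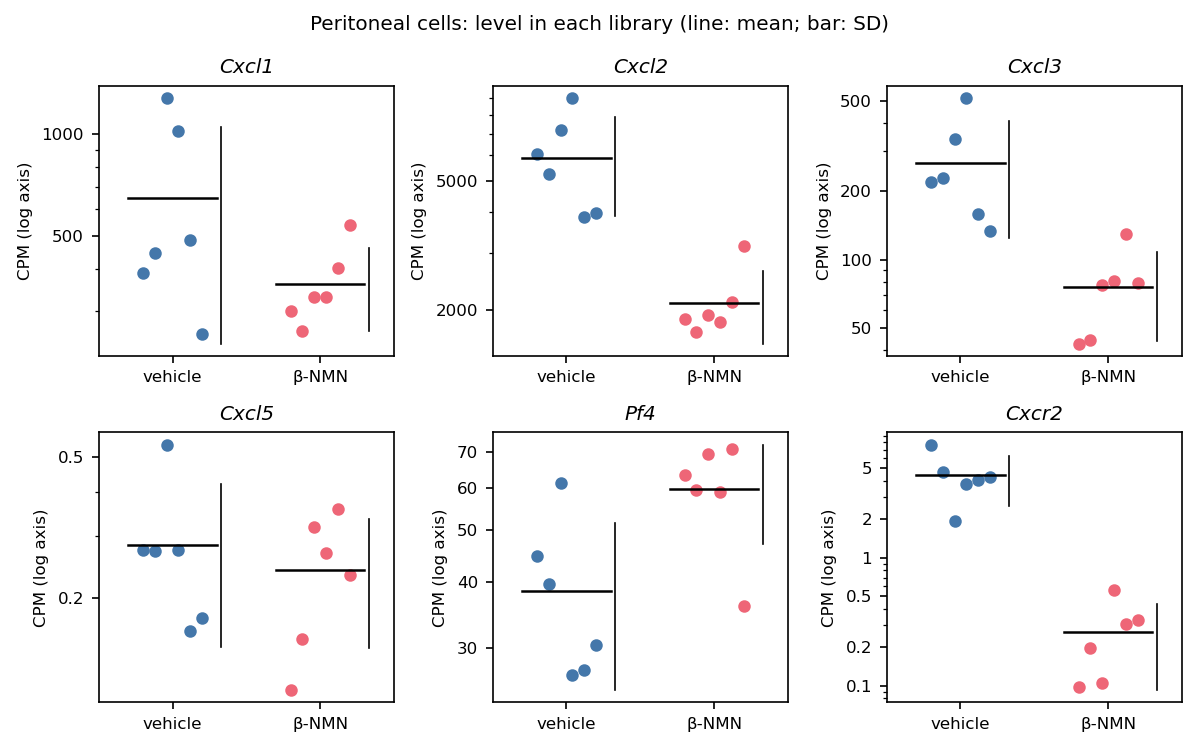
Level of 6 genes in each peritoneal library, in CPM on a log axis, for 6 vehicle (blue) and 6 β-NMN (red) mice, with the group mean as a line and the SD as a bar. The β-NMN libraries lie below all vehicle libraries for Cxcl2, Cxcl3 and Cxcr2, and overlap them for Cxcl1, Cxcl5 and Pf4, with the β-NMN mean of Pf4 above that of vehicle.

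The libraries split into a deep class of at least 90571560 counts (3 vehicle and 2 β-NMN) and a shallow class of at most 53319385 counts (3 vehicle and 4 β-NMN). Within the deep class the log2 differences were -1.58 for Cxcl2, -2.55 for Cxcl3 and -4.69 for Cxcr2, and within the shallow class -1.42, -1.49 and -3.81, all at adjusted p below 0.05 by edgeR. Pf4 was called in the deep class (1.19, adjusted p = 0.00111) and not in the shallow (0.31, 0.369). Cxcl1 was called in neither (-0.996, adjusted p = 0.164, and -0.78, 0.142). These splits were chosen after the data had been seen.

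Neutrophil markers moved with Cxcr2. Of 17 such genes, 15 were tested in peritoneal cells, and 13 were called as lower and 1 as higher, with a median log2 change of -4.55. In the peritoneal lists below too, lower and higher count genes called at an adjusted p below 0.05 by edgeR. The summed level of the 17 neutrophil markers was 1153 to 1938 CPM in vehicle (median 1462) and 381 to 530 in β-NMN (median 446). That sum fell by less than the median of the single markers. Trem1, an amplifying receptor of neutrophils and monocytes, ran from 22.8 to 41.3 CPM in vehicle and from 0.159 to 1.48 in β-NMN (log2 -5.80, adjusted p = 2.89e-08 by edgeR). Fpr1, a receptor for bacterial formyl peptides, fell by 5.93 on the log2 scale (adjusted p = 3.13e-08), Lcn2, an iron-sequestering protein also made by stimulated macrophages, by 4.55 (3.57e-08), and the calcium-binding S100a8 by 5.00 (5.21e-08), all by edgeR. Ly6g, the defining surface marker of mouse neutrophils, was at 0.582 to 1.57 CPM in vehicle and at 0 to 0.134 in β-NMN. Cxcr1, the receptor nearest to Cxcr2 in structure, followed it (1.31 to 3.55 against 0.0531 to 0.433 CPM, log2 -3.04, adjusted p = 5.64e-06 by edgeR). Retnlg was the marker called as higher (log2 1.38, adjusted p = 0.0097). In bulk RNA such as this, fewer cells of a type cannot be told apart from less RNA per cell, and the part of the neutrophil markers in the Cxcr2 difference was not tested.

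**Figure D2:**
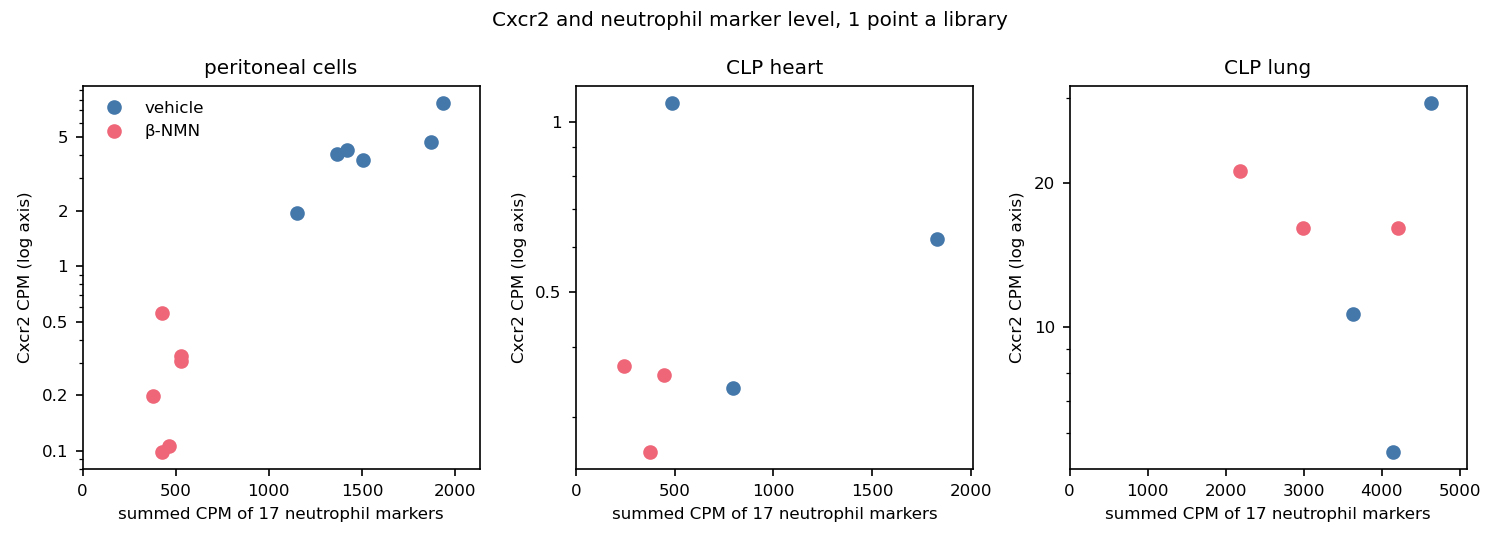
Cxcr2 level (CPM, log axis) against the summed CPM of 17 neutrophil markers, with 1 point per library, vehicle in blue and β-NMN in red. In peritoneal cells both values separate the groups (Cxcr2 at most 0.559 CPM in β-NMN and at least 1.95 in vehicle), whereas in lungs the groups overlap on both axes.

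Macrophage markers did not move as a block: of 12 tested, 4 were called as higher and 2 as lower. Among these were the lysosomal Cd68 (log2 0.84) and lysozyme Lyz2 (0.84) upwards and the LPS co-receptor Cd14 (-2.92) downwards. Red cell markers were higher for 5 of 5 genes, led by Hbb-bs (1.76 to 16.7 CPM in vehicle, 26.1 to 63.4 in β-NMN). Fibroblast markers were lower for 5 of 5 tested, with Col1a2 at 37.0 to 361 CPM against 5.80 to 35.4. Vehicle replicates 3 and 4, the highest in Cxcl1, also had the highest fibroblast sums, at 1173 and 499 CPM. The list summed to 111 to 304 CPM in the other vehicle libraries and to 22.9 to 100 in β-NMN. The part of these cell types in the chemokine differences was not tested.

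Cytokines were lower in the peritoneal cells, both those that switch these chemokines on (interleukins 1 and 17 and TNF) and Il6, Il33, Csf2 and Csf3, which were listed with them. Of 11 cytokines in this inducer list, 10 were in the table and tested, and 10 of 10 were called as lower, with a median log2 change of -2.54. Il1b, the main form of interleukin 1 secreted by macrophages, ran from 1403 to 3502 CPM in vehicle and from 190 to 333 in β-NMN (log2 -3.17, adjusted p = 2.55e-07 by edgeR). Csf3, which encodes G-CSF, the growth factor of neutrophils, ran from 76.7 to 362 against 1.71 to 4.92 CPM (log2 -5.90, adjusted p = 8.94e-08), and Csf2 and Il6 fell by 2.76 and 1.57 on the log2 scale (4.26e-07 and 1.11e-06).

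Downstream of the inducers, 27 receptors and signalling genes were tested, with 16 lower and 1 higher. The lower ones with the smallest p were Cd14, Relb, an NF-κB subunit (log2 -0.87), Nfkbiz, the IκBζ cofactor of secondary response genes (-1.09), and the interleukin 1 receptor Il1r1 (-1.99). Of 16 feedback inhibitors and regulators of mRNA decay, 13 were lower and 1 higher. Zc3h12a, a ribonuclease that degrades inflammatory mRNAs, fell by 1.55 on the log2 scale, the kinase-dead inhibitor Irak3 by 2.49, the phosphatase Dusp1 by 1.87 and the mRNA decay factor Zfp36l1 by 1.99.

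Of 7 other CXC chemokines tested in peritoneal cells, 2 were lower, 1 was higher and 4 were not called, and their median log2 change was -0.027. Cxcl16, a membrane-bound chemokine for T cells, was the higher one (433 to 574 against 554 to 735 CPM, log2 0.29, adjusted p = 0.0201 by edgeR), and Cxcl13 and Cxcl12 were lower (-1.48 and -1.51). Of 6 other CXC and atypical receptors tested, 6 were lower: Cxcr4, the receptor for Cxcl12 that holds neutrophils in marrow, ran from 99.3 to 132 CPM in vehicle and from 26.6 to 47.1 in β-NMN (log2 -1.60), and the B cell receptor Cxcr5 fell by 1.80. Lymphocyte markers moved in the same direction, with 6 of 8 called as lower and a median log2 change of -1.48. They summed to 40.8 to 206 CPM in vehicle and 27.4 to 89.1 in β-NMN, and their part in the receptor values was not tested. Adhesion genes for neutrophil rolling and arrest gave 6 lower and 2 higher of 12, led by the integrin chain Itgal (log2 -2.69).

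Cxcl1, Cxcl2 and Cxcl3 varied together from mouse to mouse within groups. Over the 12 peritoneal libraries, each taken as its deviation from its group mean on the log2 scale, Pearson's r was 0.81 between Cxcl1 and Cxcl2, 0.77 between Cxcl1 and Cxcl3 and 0.75 between Cxcl2 and Cxcl3. With Cxcr2 the same 3 genes gave r of -0.27, -0.013 and 0.11, and with Pf4 0.090, -0.076 and 0.13. These are descriptions without a test, since all values in a library share its depth and cell mixture. Cxcl2 and Cxcl3 also share sequence: 126 of 2159 words of 50 bases in Cxcl2 transcripts recur in Cxcl3, and reads from there could be assigned to either or dropped. Among 11213 genes with a mean of at least 1 CPM, the genes most like each member over these 12 deviations were Rab32, Sgms1 and Asns for Cxcl2 (r 0.97, 0.97 and 0.97), Clmp, Depdc5 and Extl2 for Cxcl1 (0.96, 0.96 and 0.95) and Ppig, Pak1ip1 and Srxn1 for Cxcl3 (0.93, 0.93 and 0.92). For Pf4 they were Ndufa10, Tial1 and Pdcd5 (0.94, 0.93 and 0.93), and for Cxcr2 mt-Rnr2, the neutrophil granule gene Ltf and Neb (0.87, 0.86 and 0.86).

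Hearts and lungs were scaled apart from the peritoneal cells, so levels are set side by side here without a test. In vehicle hearts after CLP, mean levels of Cxcl1, Cxcl2 and Cxcl3 were 22.8, 4.55 and 1.12 CPM, against 647, 5886 and 266 in vehicle peritoneal cells, whereas Cxcl5 and Ppbp had higher mean levels in hearts (10.5 against 0.283 and 2.51 against 0.0682 CPM). Per exon length, mean levels in vehicle hearts were 15.3 CPM per kb for Pf4, 12.2 for Cxcl1, 5.64 for Cxcl5, 2.31 for Ppbp, 2.20 for Cxcl2, 0.320 for Cxcl3 and 0.223 for Cxcr2. The ranges of neighbours in this order overlapped, except those of Cxcl2 and Cxcl3, and with the exons of coding transcripts alone Cxcl1, at 24.0 CPM per kb, came before Pf4, at 15.8. Cxcl15 was at 0 counts in 5 hearts and at 1 count in the heart of β-NMN replicate 3.

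The inducible ligands were lower in all 3 hearts of β-NMN mice than in any vehicle heart, but no gene passed the adjusted test of edgeR in this organ. Cxcl1 was at 6.56, 47.5 and 14.4 CPM in vehicle replicates 1 to 3 and at 3.28, 1.44 and 2.93 in β-NMN replicates 1 to 3. The heart of vehicle mouse 2 was the highest, yet the other vehicle hearts also exceeded all β-NMN hearts. The log2 difference was -3.17 (SE 0.76, unadjusted p = 0.00419, adjusted p = 0.435 by edgeR) and -2.05 without vehicle replicate 2.

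Cxcl2 was at 1.41, 8.26 and 3.99 CPM in vehicle hearts and at 0.968, 0.443 and 1.04 in β-NMN hearts. Vehicle replicate 1 came close to the β-NMN values. The difference was -2.48 (SE 0.67, adjusted p = 0.435 by edgeR), and -1.72 without vehicle replicate 2. Cxcl5 had the largest fitted change of the tested members, with 0.784, 19.8 and 10.9 CPM in vehicle hearts and 0.186, 0.425 and 0.248 in β-NMN hearts. The difference was -5.14 (SE 1.13, 95% interval -7.83 to -2.45, adjusted p = 0.435 by edgeR), and -4.28 without vehicle replicate 2.

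Cxcl3 was not tested in hearts because of its low counts, which were 2, 107 and 45 in vehicle replicates 1 to 3 and 0 in each β-NMN heart. The 95% counting interval of the ratio of summed vehicle to summed β-NMN level began at 39.3, and at 17.9 without vehicle replicate 2. With 3 counts set in place of the 0 of the β-NMN group, the ratio was 48.9, and 22.9 without vehicle replicate 2. These values cover counting error and not the spread between mice. Most of the summed vehicle counts came from vehicle replicates 2 and 3.

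The platelet chemokines were also lower on average in β-NMN hearts. Pf4 was at 8.34, 18.5 and 6.29 CPM in vehicle and at 3.76, 5.19 and 3.71 in β-NMN, without overlap (log2 -1.39, SE 0.41, adjusted p = 0.435 by edgeR, and -0.80 without vehicle replicate 2). Ppbp was at 4.10, 2.11 and 1.31 against 0.484, 2.09 and 0.605 CPM, with overlap at β-NMN replicate 2 (-1.23, SE 0.66, adjusted p = 0.458, -1.35 without vehicle replicate 2 and -2.19 with β-NMN replicate 2 left out). Cxcr2 held 7 to 37 counts per heart, at 0.338, 0.621 and 1.08 CPM in vehicle and 0.261, 0.370 and 0.357 in β-NMN. These overlapped (-0.99, SE 0.47, adjusted p = 0.446, and -1.03 without vehicle replicate 2).

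Of 16245 genes tested in hearts by edgeR, 0% were called, 1837 had an unadjusted p below 0.05, and 4 of the 6 tested members were among them. All 6 tested members had a negative log2 change, with a median of -1.94 against -0.0058 over all genes tested. The groups did not overlap, with β-NMN lower, for 4 of the 6 tested members and for 11.5% of all genes tested. DESeq2 called 1.75% of the genes for which it gave an adjusted p, and 3 members among them, namely Cxcl1 (adjusted p = 0.000513), Cxcl2 (0.0138) and Cxcl5 (0.00181). Vehicle replicate 2 was the highest heart for these 3 genes, and DESeq2 was not run without it. The edgeR fit without that heart gave them adjusted p of 0.187, 0.337 and 0.220. The exact permutation test of 3 mice against 3 cannot go below p = 0.1 and gave that value for Cxcl1, Cxcl2, Cxcl3, Cxcl5 and Pf4.

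Other genes of the pathway in hearts were negative in most cases, again with 0 called by edgeR. All 6 inducers tested were negative with a median of -2.66, among them Il6 (1.03 to 7.62 CPM in vehicle, 0.0372 to 0.0924 in β-NMN), Il33 (-3.51), Csf3 (-6.70) and Il1b (-1.35). The endothelial selectins that slow neutrophils in vessels had lower values, with Sele at 6.22 to 25.6 CPM against 1.46 to 2.64 (log2 -2.94) and Selp at 11.5 to 84.7 against 2.61 to 4.25 (-3.58). All 14 neutrophil markers tested were negative with a median of -0.85, and the summed level of the list was 485 to 1830 CPM in vehicle and 240 to 445 in β-NMN. Lcn2 made up most of that sum (420 to 1778 CPM in vehicle), while Ly6g did not exceed 0.204 CPM and Cxcr1 was at 0 in 5 of 6 hearts. Platelet and megakaryocyte markers were negative for 7 of 9 tested, with a summed level of 110 to 157 CPM in vehicle and 98.3 to 122 in β-NMN. Mesothelial markers, which line the heart's surface, were negative for 4 of 4, with Msln at 0.353 to 45.3 CPM in vehicle and 0.0775 to 1.497 in β-NMN. Fibroblast markers were negative for 6 of 6, with a median of -0.48 and sums of 1059 to 2181 CPM in vehicle and 887 to 1298.5 in β-NMN. Cardiomyocyte markers were positive for 7 of 8, and their sums did not overlap (34630 to 51040 CPM in vehicle, with the lowest in vehicle mouse 2, and 52685 to 57815 in β-NMN). The heart of vehicle mouse 2 was the highest in several of these sums. Mesothelial markers summed to 9.82, 98.0 and 12.1 CPM in vehicle replicates 1 to 3, inducers to 16.2, 119 and 27.5, and neutrophil markers to 794.5, 1830 and 485.5. Without it the mesothelial sums of the groups overlapped (5.66 to 10.1 in β-NMN), whereas the inducer sums (5.12 to 6.08 in β-NMN) and the neutrophil sums did not. The part of these cell types in the chemokine values was not tested.

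In lungs after CLP, Cxcl15 was the most abundant member. Mean levels in vehicle lungs were 179 CPM per kb for Cxcl15, 24.3 for Pf4, 5.87 for Cxcl1, 4.96 for Cxcr2, 4.14 for Ppbp, 2.64 for Cxcl2, 1.89 for Cxcl5 and 0.0487 for Cxcl3. Only the first and last steps of this order, from Cxcl15 to Pf4 and from Cxcl5 to Cxcl3, and the step from Pf4 to Cxcl1, were free of overlap between the ranges of the 3 vehicle lungs.

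Cxcl1, Cxcl2 and Cxcl5 had lower mean levels in β-NMN lungs, though no gene was called by edgeR. Cxcl5 was at 1.82, 6.65 and 2.11 CPM in vehicle replicates 1 to 3 and at 0.731, 0.348 and 0.477 in β-NMN replicates 1 to 3, or 46 to 54 counts against 9 to 13. The groups were well apart. The log2 difference was -2.74 (SE 0.67, 95% interval -4.33 to -1.14, unadjusted p = 0.00483, adjusted p = 0.969 by edgeR), and -1.95 without vehicle replicate 2. By unadjusted p it ranked 15 among 17008 genes.

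Cxcl2 was at 3.74, 9.97 and 2.65 CPM in vehicle lungs and at 2.01, 0.928 and 2.13 in β-NMN lungs. The lowest vehicle lung was just above the highest β-NMN lung. The difference of -1.67 (SE 0.63, adjusted p = 0.969 by edgeR) was -0.93 without vehicle replicate 2. Cxcl1 was at 17, 11.8 and 4.18 CPM against 2.19, 0.735 and 5.06, with overlap between vehicle replicate 3 and β-NMN replicate 3 (-2.04, SE 0.79, adjusted p = 0.969, -1.98 without vehicle replicate 2 and -2.92 with β-NMN replicate 3 left out). Cxcl3 had between 0 and 9 counts per lung in both groups and was not tested.

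Cxcl15 and Ppbp were higher in every β-NMN lung than in any vehicle lung. Cxcl15 was at 503, 168 and 474 CPM in vehicle and at 825, 951 and 551 in β-NMN, with the lowest value in vehicle replicate 2. The log2 difference of 1.02 (SE 0.47, 95% interval -0.081 to 2.13, adjusted p = 0.969 by edgeR) was 0.66 without that library. Alveolar epithelial markers summed to 28178 to 36572 CPM in vehicle lungs and to 28213 to 50057 in β-NMN lungs. Airway epithelial markers summed to 53599 to 73771 and to 33168 to 61520, with the mucin Muc5b at 197 to 706 CPM in vehicle and 24.0 to 65.2 in β-NMN. Among the other cell type lists, the sums of macrophage and cardiomyocyte markers did not overlap. Macrophage markers were at 4142, 1535 and 4520 CPM in vehicle lungs 1 to 3 and at 5192 to 5613 in β-NMN lungs. Cardiomyocyte markers, negative for 6 of 7, were at 257 to 425 against 77.4 to 252. The part of these cell types in the chemokine values was not tested.

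Ppbp was at 5.30, 3.18 and 4.97 CPM in vehicle lungs and at 8.28, 14.7 and 7.52 in β-NMN lungs (log2 1.17, SE 0.39, unadjusted p = 0.0194, adjusted p = 0.969 by edgeR, and 0.99 without vehicle replicate 2). Pf4, its neighbour in the platelet granule, was at 15.3, 24.7 and 12.5 CPM against 18.8, 18.5 and 20.4, with overlap (0.14, 95% interval -0.56 to 0.85, and 0.47 without vehicle replicate 2). Platelet and megakaryocyte markers were positive for 10 of 12 tested in lungs, with a median of 0.64, led by Clec1b, a platelet activating receptor (4.91 to 8.23 CPM in vehicle, 10.9 to 17.5 in β-NMN, unadjusted p = 0.0127). Their summed level, carried by F13a1 and Itgb3, was 171 to 190 CPM in vehicle and 155 to 177 in β-NMN, and Gp1bb was at 0 in all lungs. The part of platelet content in the Ppbp values was not tested.

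Cxcr2 was at 10.6, 5.49 and 29.2 CPM in vehicle lungs and at 16.1, 21.2 and 16.1 in β-NMN lungs. The vehicle lungs spanned more than the whole β-NMN range. The log2 difference was 0.22 with a 95% interval from -1.12 to 1.56. It was -0.16 without vehicle replicate 2 and 1.14 without vehicle replicate 3. Neutrophil markers were negative for 13 of 16 tested with a median of -0.056, and summed to 3627 to 4626 CPM in vehicle and 2185 to 4204 in β-NMN.

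Of 17008 genes tested in lungs by edgeR, 0% were called, 301 had an unadjusted p below 0.05, and 4 of the 7 tested members were among them, namely Cxcl1, Cxcl2 and Cxcl5 with a negative and Ppbp with a positive change. The groups did not overlap, with β-NMN lower, for 2 of 7 members and for 3.75% of all genes tested, and, with β-NMN higher, for 2 of 7 members and for 4.47% of all genes tested. DESeq2 called 0.0536% of the genes and no member, with an adjusted p of 0.0832 for Cxcl5. Among the inducers, 5 of 7 tested were negative in lungs, with Il1b at 12.4 to 14.5 CPM against 5.79 to 9.57 and Csf3 at 0.497 to 20.9 against 0.0773 to 0.587, and Il33 was positive (17.2 to 29.8 against 31.9 to 46.3). Receptors and signalling genes were negative for 21 of 27, with sums of 1435 to 1507 CPM against 1184 to 1349, without overlap. Feedback inhibitors and regulators of mRNA decay were negative for 15 of 16.

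**Figure D3:**
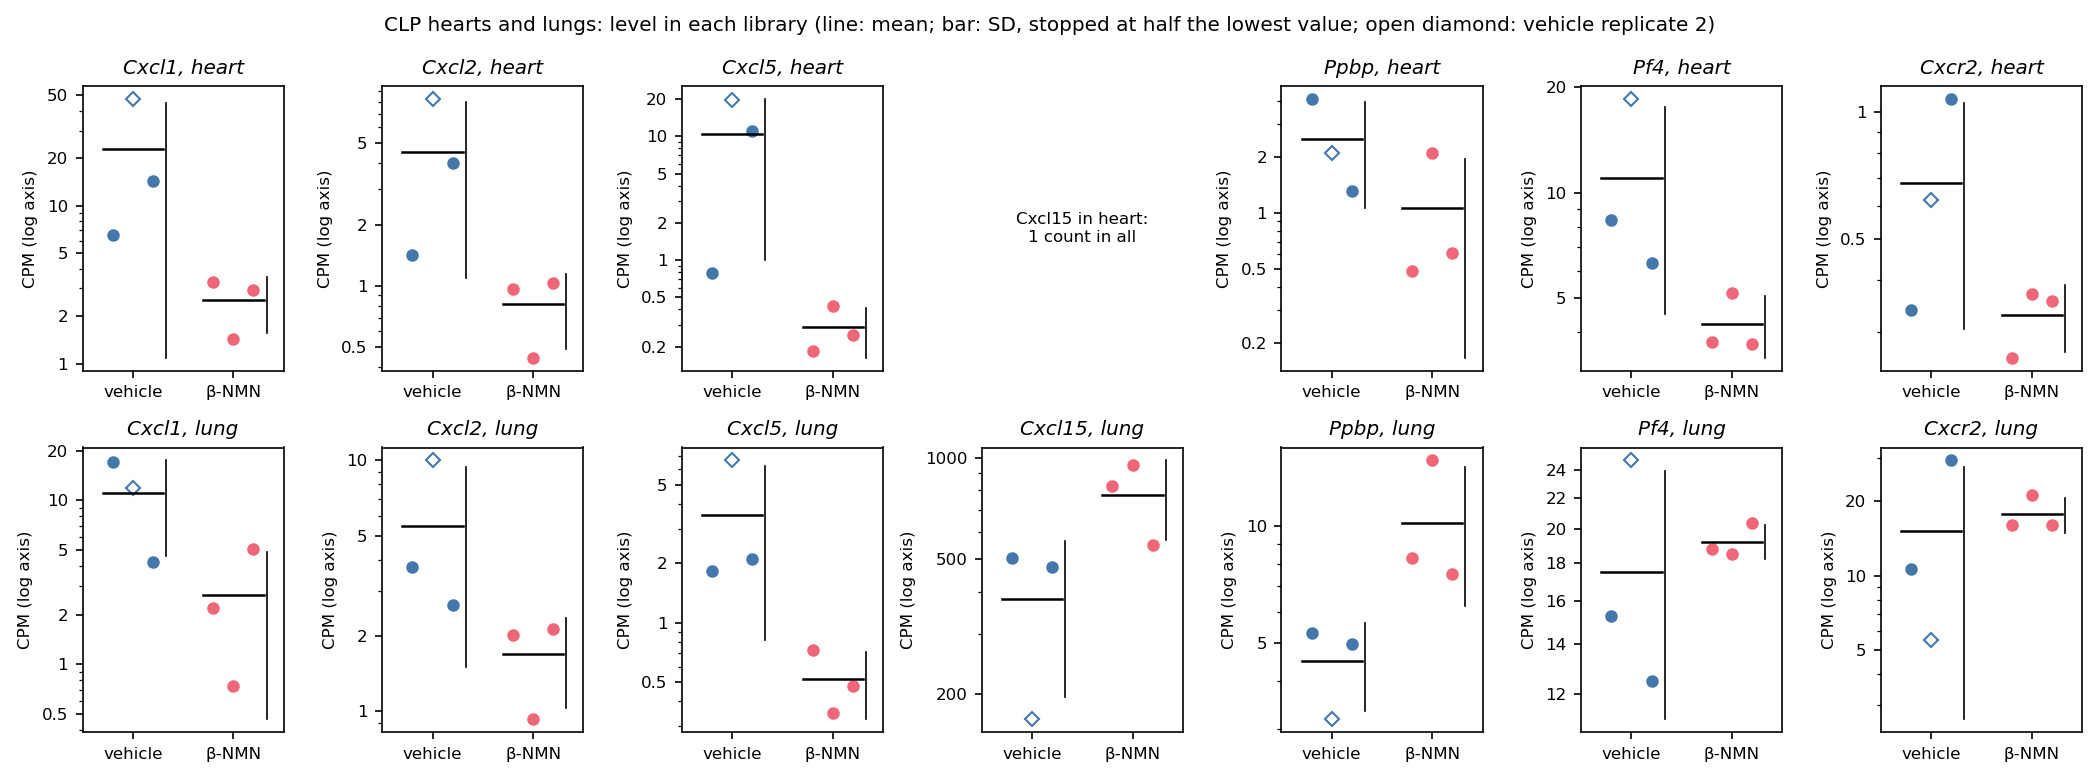
Level of each member in every CLP heart (top) and lung (bottom), in CPM on log axes, for 3 vehicle (blue, replicate 2 as an open diamond) and 3 β-NMN (red) mice, with means as lines and SDs as bars; bars that would reach 0 or below are cut short. Cxcl1, Cxcl2, Cxcl5 and Pf4 do not overlap in heart, Cxcl2 and Cxcl5 are lower and Cxcl15 and Ppbp higher without overlap in lung.

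Cxcl3 is left out of that plot because of its low counts. The plot of log2 changes sets the 3 tissues side by side. The heart and lung values come from the same mice and are not independent of each other.

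**Figure D4:**
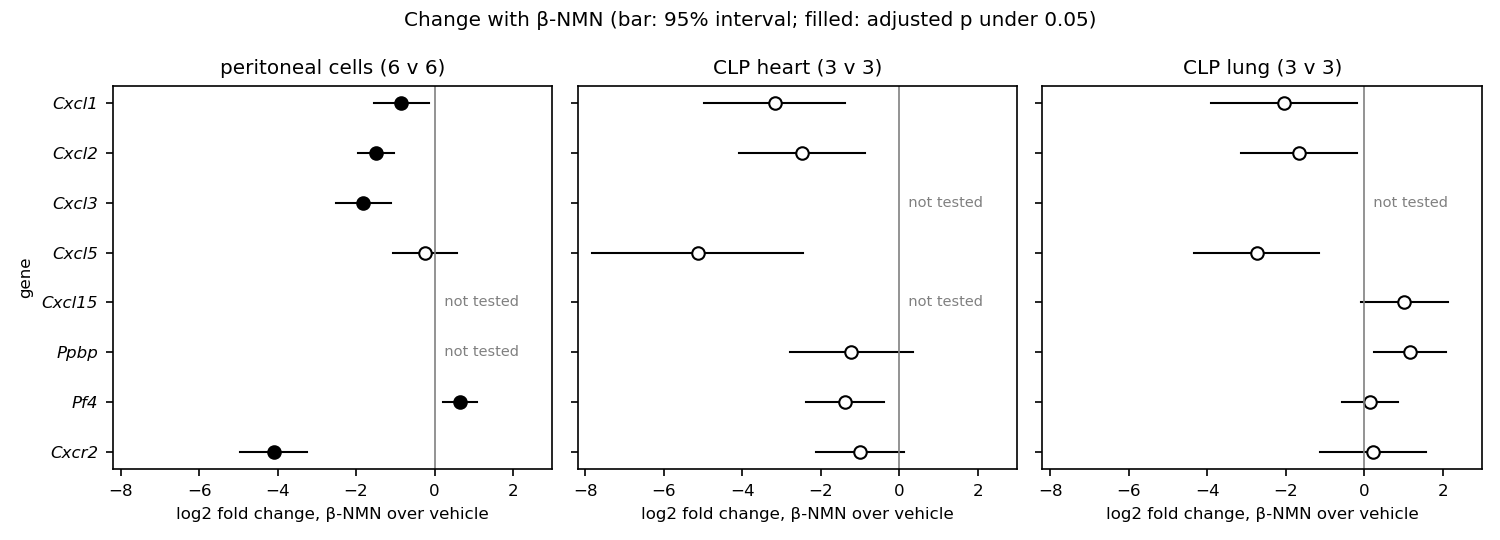
Log2 fold change of β-NMN over vehicle for each member in peritoneal cells, heart and lung, with 95% intervals from the edgeR fit. Filled points (Cxcl1, Cxcl2, Cxcl3, Pf4 and Cxcr2 in peritoneal cells) had an adjusted p below 0.05, and open points did not.

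Heart and lung were compared within each mouse over the 12 CLP libraries, with CPM from 1 joint scaling. Cxcr2 was higher in lung in 6 of 6 mice, at 4.03 to 23.7 CPM against 0.329 to 1.36 in heart (log2 4.34, SE 0.40, adjusted p = 2.95e-05 by edgeR), a 20.2-fold difference, and by 4.56 on the log2 scale without vehicle mouse 2. All 16 neutrophil markers tested had higher fitted levels in lung, and 14 of them were called. Of all 18318 genes tested, 6342 were called as higher in lung. Cxcl15 held 80672 counts over the 6 lungs and 1 count over the 6 hearts, a ratio of 116724 with a 95% counting interval from 20949 to 4610410.

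The platelet chemokines were higher in lung on average. Ppbp was higher in lung in 4 of 6 mice (log2 1.55, SE 0.56, adjusted p = 0.0378 by edgeR) and Pf4 in 5 of 6 (0.80, SE 0.31, adjusted p = 0.0474). Both calls were lost in several alternative fits. Leaving out β-NMN mouse 1, 2 or 3 or vehicle mouse 3 removed the Ppbp call (adjusted p 0.0772 to 0.114), and leaving out any mouse but vehicle mouse 2 removed that of Pf4 (0.0585 to 0.147), as did the fits without the low-count filter (0.0630) and without the mouse block (0.0775). Without vehicle mouse 2 both were called (log2 1.70 and 0.91, adjusted p 0.00506 and 0.00426). Cxcl1 was higher in heart in 4 of 6 mice (-1.20, SE 0.50, adjusted p = 0.0627 by edgeR, and -0.91 without vehicle mouse 2). It was called with DESeq2 (adjusted p = 0.0105), without the low-count filter (0.0457), without vehicle mouse 1 (0.0160) and without β-NMN mouse 3 (0.0368). Cxcl2 did not differ beyond its error (0.021, 95% interval -0.66 to 0.70), nor did Cxcl5 (-0.85, -2.26 to 0.57), and without vehicle mouse 2 they were at 0.0049 and -0.71. Of the 7 members tested, 4 were called, as were 63.9% of the 18318 genes.

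**Figure D5:**
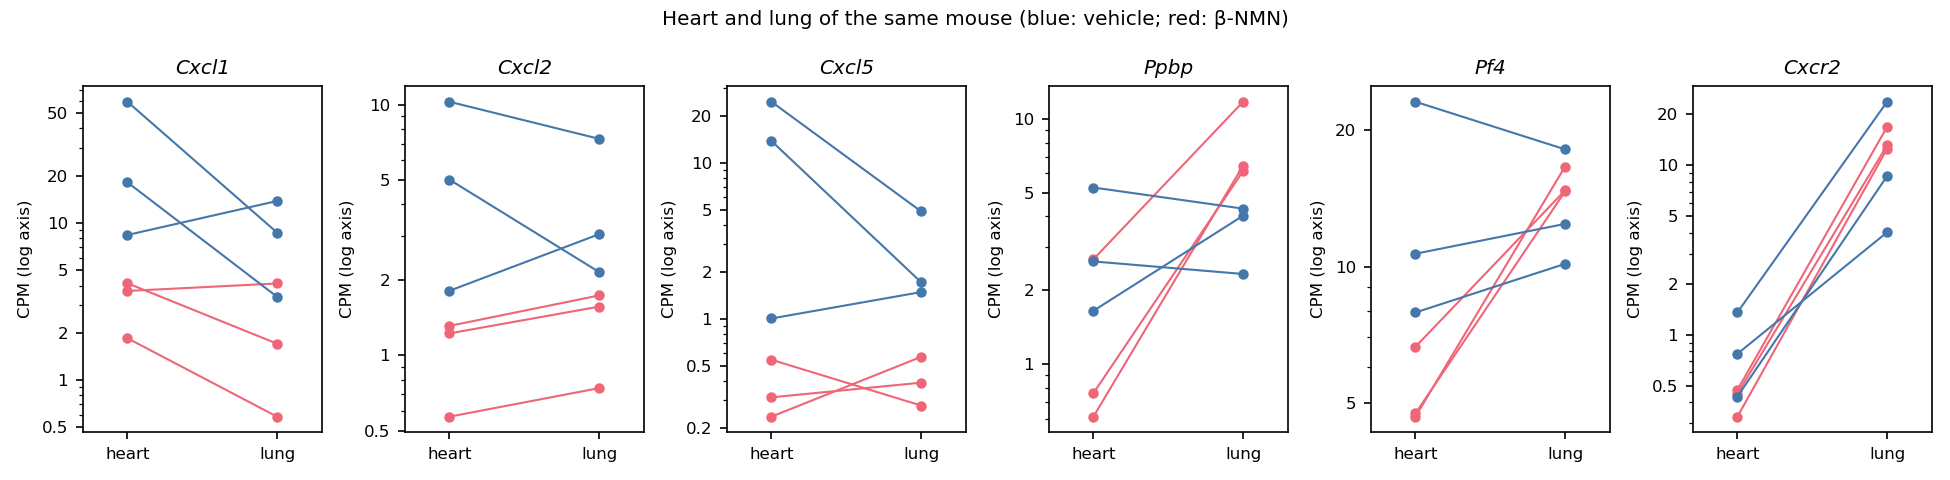
Level of 6 members in heart and lung of each mouse, joined by a line, in jointly scaled CPM on log axes, with vehicle mice in blue and β-NMN mice in red. Cxcr2 rises from heart to lung in 6 of 6 mice, and Ppbp and Pf4 rise in all 3 β-NMN mice.

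The β-NMN effect was also compared between the organs with an interaction term. For Ppbp the effect in lung exceeded that in heart by 2.54 on the log2 scale (SE 0.61, unadjusted p = 0.00363) and for Pf4 by 1.46 (SE 0.35, unadjusted p = 0.00363), and for Cxcr2 by 1.43 (SE 0.58, unadjusted p = 0.0410), each with an adjusted p of 0.948 by edgeR. Without vehicle mouse 2 these were 2.32, 1.25 and 0.84. Differences for Cxcl1, Cxcl2 and Cxcl5 were 0.69, 0.70 and 1.82 (-0.00092, 0.61 and 1.40 without vehicle mouse 2, 1.72 for Cxcl1 and 2.81 for Cxcl5 without vehicle mouse 1, and 1.07 and 2.43 for Cxcl5 without vehicle mouse 3 and β-NMN mouse 2), with 95% intervals that all included 0, and the fitted value of Cxcl15 rests on 1 count in hearts and is not given. Of 18318 genes, 0% were called, 498 had an unadjusted p below 0.05, and DESeq2 called 12 genes and no member.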

How the data were processed

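The authors deposited read counts per gene symbol without normalization, made from poly(A) RNA on a NovaSeq and mapped to mm10. The submitters' notes name STAR 2.7.3a and featureCounts 2.0.0. The annotation and strand setting are not given in the sources used here, and reads are described both as single-end and as paired-end. Of counts from 1 to 10, 61.1% to 70.9% were even in peritoneal libraries and 36.3% to 42.2% in organs, so peritoneal counts may exceed the number of fragments, which was not tested.

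The model of edgeR 4.0.16 (R 4.3.3) was run separately per tissue: filterByExpr, TMM, estimateDisp and the older quasi-likelihood F-test, with Benjamini-Hochberg adjustment over all genes tested and calls at 0.05. Organs were compared with the mouse as a block. Log2 CPM used a prior count of 2. Exact permutation tests used scipy 1.17.1. CPM per kb used GENCODE M21 exons. The tests were tried on simulated counts. Replicates are separate mice. Alternatives included DESeq2 1.42.0, its size factors, no filter, the newer fit, the replicate block and leaving out each library. All 8 members were named, with at most 4 genes of a list per comparison by smallest p and other marker genes chosen after their values were seen. Members, gene lists and tests were chosen with earlier results of these data known.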

Additional observations from a re-analysis of the deposited data

Results flagged for a closer look

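Among 16 groups of 6 peritoneal libraries, 3 held a library far from the other 5, where chance alone gives about 1 in 20 groups. Cxcl2 in β-NMN replicate 6 was at 3148 CPM, above the other β-NMN libraries and below all vehicle libraries. Pf4 in the same library was at 36.1 CPM, below the other β-NMN libraries and within the vehicle range. Cxcl15 in β-NMN replicate 4 was at 0.156 CPM, from 7 counts, where 4 of the 6 libraries had 0.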

How the results depend on the processing

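Of 469 values recomputed under an alternative, 423 kept their direction and their side of the threshold or, for counts of members called, stayed within 1.5 times. In peritoneal cells 5 members and 7733 of 14985 genes were called, against 4 and 8149 with DESeq2 and, in a split chosen after seeing the data, 4 and 5717 of 18730 in the deep libraries and 3 and 4244 of 15198 in the shallow ones. In hearts DESeq2 called 3 members and 262 genes against 0, the fit without the filter 3 genes and that without vehicle replicate 2 5 genes, with no member in the last 2. DESeq2 called 9 genes in lungs and 12 for the interaction, where leaving out vehicle mouse 2 gave 2 genes. DESeq2 called 5 members and 12664 genes between organs against 4 and 11699. Members called between organs ranged from 2 to 4 when a mouse was left out (2 without β-NMN replicates 1 or 2 or vehicle replicate 3). When libraries were left out, Cxcl5 ranged from -0.39 to 0.070 in peritoneal cells (positive without vehicle replicate 3), Cxcr2 from -0.16 to 1.14 and Pf4 from -0.024 to 0.47 in lungs (negative without vehicle replicate 2 and 3, respectively), Cxcl2 between organs from -0.15 to 0.26, and the Cxcl1 interaction from -0.00092 to 1.72. Cxcl2 between organs was also -0.064 without the block, -0.0042 with DESeq2 and -0.019 without the filter. Causes were not tested.

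Nothing in the labels ties equal replicate numbers across treatments, and the numbers were not taken as pairs, since not every same-number correlation exceeded 0.1: they ran from -0.17 to 0.13 in peritoneal cells, from 0.073 to 0.24 in hearts and from -0.52 to 0.30 in lungs. The libraries that correlated best with their own number were 1 of 12, 6 of 6 and 1 of 6, which in hearts is a hint of pairing from the data alone. With the replicate number as a block, 4, 0 and 0 members and 7010, 0 and 0 genes were called, Cxcl1 in peritoneal cells having an adjusted p of 0.118 (log2 -0.67). Without the mouse block, 3 members were called between organs and 0 for the interaction. A prior count of 0.5 changed no permutation call. Cxcl3, Cxcl15 in heart and Ppbp in peritoneal cells are limited by their counts.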
